A study of Zea mays with 8 samples.

Results

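BiP and the protein disulfide isomerases fold proteins in the endoplasmic reticulum (ER), where maize endosperm cells load their zein storage proteins. The 5 genes described here were chosen by identifier: the BiP genes bip1 (GRMZM2G114793, also named b-70) and bip2 (GRMZM2G415007), and the disulfide isomerase genes PDIL1-1 (GRMZM2G091481), pdi2 (GRMZM2G163421, also named PDIL1-2) and PDIL5-1 (GRMZM2G073628). They are 5 of the 39423 genes in the files, and 5 of 5 reached the level needed for a test. Their names come from a RefSeq gene table, which pairs these identifiers with them.

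Endosperm of maize (Zea mays, W22 background), the storage tissue of the kernel, was collected 12 days after pollination. The 8 RNA sequencing libraries are 4 from kernels labelled ded1-ref and 4 from their normal siblings. They come from 4 pairs of sibling pools, which the submitters call biological replicates; the labels name kernel as the tissue and endosperm as the source. ded1-ref is a mutant allele of ded1 (GRMZM2G121570), a MYB factor gene, whose transcript had 67.3, 69.7, 101 and 67.4 TPM in ded1-ref replicates 1 to 4, against 42.0, 40.2, 38.5 and 37.0 TPM in normal replicates. A mutant allele need not lower its own transcript, so this level does not check the labels, and every direction below refers to libraries as labelled. Recovered reads ran from 10536845 to 20725033 per library.

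BiP is an ATP-driven chaperone of the Hsp70 family that holds unfolded chains in the ER and is known as a signal of ER protein load; its maize form was found as b-70, a protein that builds up in endosperm of floury2 and other mutants with defective zein. Disulfide isomerases make and exchange the disulfide bonds of secreted proteins. In rice, loss of the enzyme called PDIL1-1 is known to leave storage protein precursors in the ER. Among zeins, the gamma, beta and delta classes are rich in sulfur amino acids and gamma and beta zein are held together by disulfide bonds, while alpha zein fills the protein body.

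In the libraries labelled ded1-ref the isomerase transcript pdi2 fell to 2.79 ± 0.780 TPM, against 27.1 ± 1.18 TPM in normal libraries (SD, n = 4 each). PDIL1-1 and PDIL5-1 were lower on both scales used but passed on 1 of them, and the BiP genes were lower on 1 scale and higher on the other. TPM are length-scaled transcript shares of a library, and over all tested genes the median log2 change in TPM was -0.68. A second test therefore used TPM divided by median-of-ratios factors, called scaled TPM, in which the median change is -0.0031. A gene is said to have fallen or risen only where both tests passed in that direction at an adjusted p of 0.05 (limma on log2 of the value + 1, with the pair as a block, Benjamini-Hochberg over 13671 genes). A fold on this scale understates the change of genes with low values. On the TPM scale 5 of 5 genes passed as lower, beside 69.8% of all tested genes. On scaled TPM 1 of 5 passed as lower, beside 10.6% of all tested genes, and 0 of 5 as higher, beside 12.3%. By both tests pdi2 fell, beside 10.6% of all tested genes that fell and 3.53% that rose.

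pdi2 encodes a disulfide isomerase closely related to PDIL1-1. Its level was 2.84, 3.32, 1.67 and 3.33 TPM in the ded1-ref pools, replicates 1 to 4, against 26.9, 27.2, 28.5 and 25.7 TPM in normal replicates 1 to 4. The groups did not overlap, and 52.6% of all tested genes were likewise lower in TPM without overlap. In TPM this was a log2 change of -2.91 ± 0.20 (SE; limma adjusted p = 3.9e-07) and -2.20 ± 0.16 on scaled TPM (limma adjusted p = 4.4e-05). In 4 of 4 pairs the ded1-ref pool was the lower, on either scale. Counted from the lowest, its scaled change was number 79 of 13671 tested genes. The reads behind these values were 117, 112, 47 and 107 in the libraries labelled ded1-ref and 716, 497, 825 and 590 in normal libraries. The authors' deposited table gives pdi2 a log2 fold of -2.40 with an adjusted p of 3.6e-36, where 6.75% of the rows with an adjusted p are lower and 7.95% higher at 0.05.

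PDIL1-1, the classical disulfide isomerase, was scarce in both groups. It had 3.13, 4.25, 2.31 and 2.73 TPM in ded1-ref replicates 1 to 4, against 7.42, 8.59, 7.11 and 6.71 TPM in normal replicates. Every library labelled ded1-ref lay below every normal library, as for 52.6% of all tested genes in TPM. The means were 3.11 ± 0.834 and 7.46 ± 0.807 TPM (SD, n = 4 each; ded1-ref, then normal). In TPM this was a log2 change of -1.06 ± 0.20 (SE; limma adjusted p = 5.7e-04) and -0.37 ± 0.15 on scaled TPM, where it did not pass (limma adjusted p = 0.113), although it was lower in 4 of 4 pairs and its groups did not overlap there either, as for 12% of all tested genes that were lower on scaled TPM. All of its reads were in transcript row T02, with 72 to 159 reads in the libraries labelled ded1-ref and 171 to 228 in normal libraries, while row T01 was listed at 0 in all 8 libraries. The authors' deposited table gives row T02 a log2 fold of -0.43 with an adjusted p of 0.114.

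PDIL5-1 belongs to another branch of the isomerase family, and its barley counterpart is known as a host factor of bymoviruses. It had 5.74, 3.96, 8.30 and 7.89 TPM in ded1-ref replicates 1 to 4, against 17.8, 17.4, 17.6 and 15.2 TPM in normal replicates. The groups did not overlap in TPM, as for 52.6% of all tested genes that were lower on that scale. On scaled TPM, however, ded1-ref replicate 3, at 13.8, lay among the normal libraries, which ran from 11.4 to 14.4. In TPM this was a log2 change of -1.31 ± 0.21 (SE; limma adjusted p = 1.9e-04) and -0.54 ± 0.23 on scaled TPM (limma adjusted p = 0.127), with 3 of 4 pairs lower on scaled TPM. Row T02 carried nearly all of its reads, 39 to 74 in the libraries labelled ded1-ref and 92 to 141 in normal libraries, and row T01 had 0 to 1 and 1 to 7 reads. For rows T02 and T01, the authors' deposited table has log2 folds of -0.43 and -1.25, with adjusted p-values of 0.426 and 0.190.

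The name table gives PDIL5-1 to a second gene model as well, GRMZM2G443655, which held most of the transcripts under that name. This model had 78.2, 110.1, 76.2 and 145 TPM in ded1-ref replicates 1 to 4, against 307, 333, 313 and 329 TPM in normal replicates. It fell by both tests, with log2 changes of -1.69 ± 0.15 (SE) in TPM and -0.85 ± 0.15 on scaled TPM (limma adjusted p = 3.4e-06 and 0.0033). The model GRMZM2G073628 made up 6.33% ± 2.70 of the summed TPM of both in the libraries labelled ded1-ref and 5.04% ± 0.464 in normal libraries (SD, n = 4 each).

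The BiP genes were by far the most abundant of the 5. bip1 had 545, 661, 446 and 373 TPM in ded1-ref replicates 1 to 4, against 676, 714, 589 and 614 TPM in normal replicates. Each pair was lower in its ded1-ref library, but the groups overlapped. The means were 506 ± 125 TPM in the libraries labelled ded1-ref and 648 ± 57.1 TPM in normal libraries (SD, n = 4 each), and the log2 change was -0.39 ± 0.13 (SE; limma adjusted p = 0.0168). On scaled TPM the sign turned: bip1 stood at 799.8, 679.6, 742 and 477 in ded1-ref replicates 1 to 4 and at 547, 494, 434 and 461 in normal replicates. There its log2 change was 0.46 ± 0.16 (SE), higher in 4 of 4 pairs, and did not pass (limma adjusted p = 0.0644); it passed as higher in limma-voom on recovered reads (adjusted p = 0.0390). Without replicate 4 the TPM change was -0.27 and did not pass either (limma adjusted p = 0.0805).

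bip2 followed bip1 on both scales. It had 166, 214, 174 and 94.6 TPM in ded1-ref replicates 1 to 4, against 211, 236, 184 and 196 TPM in normal replicates, and here too the groups overlapped. The TPM gave a log2 change of -0.40 ± 0.16 (SE; limma adjusted p = 0.0379; 0.0502 without replicate 1 and 0.248 without replicate 4) and 0.44 ± 0.20 on scaled TPM (limma adjusted p = 0.150; 0.0333 without replicate 4). Within pairs the scaled change ran from -0.28 in replicate 4 to 1.09 in replicate 3. The lowest ded1-ref library was replicate 4 for both BiP genes. In the authors' deposited table, bip1 has a log2 fold of 0.47 and bip2 has 0.49, with adjusted p-values of 0.0709 and 0.171.

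**Figure D1:**
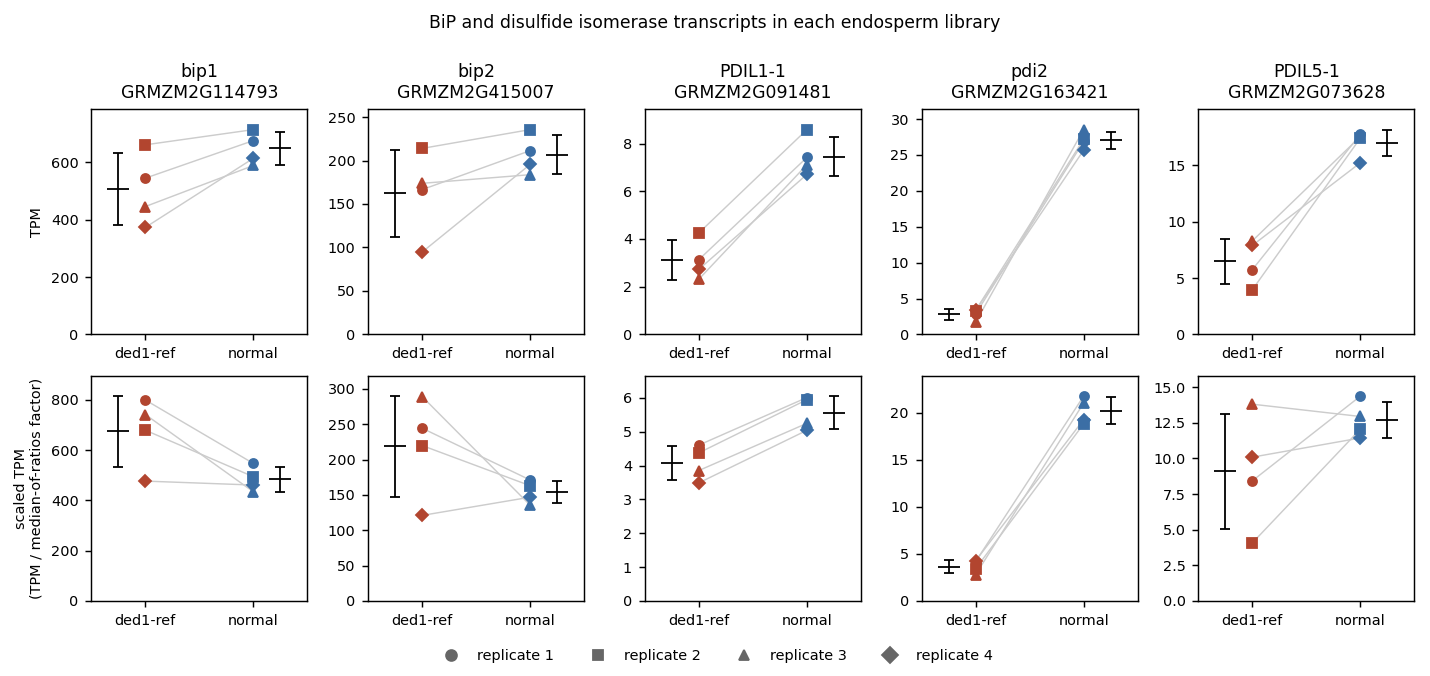
Level of the 5 genes in each library, as TPM (top row) and as TPM divided by median-of-ratios factors (bottom row); marker shapes give the replicate, grey lines join the sibling pools of a pair, and black bars are the mean ± SD over 4 libraries. pdi2 is far lower in the libraries labelled ded1-ref in both rows, while the BiP genes are lower in the top row and mostly higher in the bottom row.

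Both BiP genes are known to encode near-identical proteins, and how the authors' counting treated reads shared by the genes is not given in the sources used here, so the split between them is uncertain. Their sum avoids it. The BiP sum was 711, 875, 619 and 468 TPM in ded1-ref replicates 1 to 4, against 887, 949, 772 and 809 TPM in normal replicates, lower in 4 of 4 pairs. On scaled TPM it was 1044, 899.6, 1031 and 598 in ded1-ref replicates 1 to 4, against 718, 657, 569.7 and 608 in normal replicates, higher in 3 of 4 pairs. bip2 made up 24.0% ± 3.22 of the sum in the libraries labelled ded1-ref and 24.1% ± 0.474 in normal libraries (SD, n = 4 each), so the proportion differed by less than the spread between libraries. As TPM is per transcript length, levels of the 5 genes can be set in order. In normal libraries the order was bip1, bip2, pdi2, PDIL5-1 and PDIL1-1, each apart from the next by more than the spread. In the libraries labelled ded1-ref pdi2 and PDIL1-1 stood last, at 2.79 ± 0.780 and 3.11 ± 0.834 TPM, which did not differ beyond their spread. By mean level among the 13671 tested genes, pdi2 was number 8556 in the libraries labelled ded1-ref and 3021 in normal libraries, and bip1 was number 86 and 108.

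Ratios of transcripts within a library do not depend on how libraries are scaled. They were taken over the 3 isomerases pdi2, PDIL1-1 and PDIL5-1, which are scarce, and do not stand for the isomerases as a class. The more abundant PDIL2-3 and PDIL1-3, described with the other ER genes, had scaled log2 changes of 0.50 and 0.38, near those of the BiP genes. GRMZM2G443655, the listed isomerase model with the highest mean TPM in normal libraries, changed by -0.85 on that scale. Among the 8 tested disulfide isomerase genes, counting these 3, 2 had a positive scaled change and the median was -0.35. The BiP sum was 60.7, 75.9, 50.4 and 33.5 times the summed TPM of the 3 isomerases in ded1-ref replicates 1 to 4, against 17.04, 17.9, 14.5 and 17.01 times in normal replicates. The groups did not overlap, and the log2 ratio was higher by 1.67 in the libraries labelled ded1-ref (exact two-sided permutation p = 0.0286, the smallest that 4 against 4 libraries allow). With pdi2 left out of the isomerase sum, an alternative added after its values were seen, the log2 ratio was still higher by 0.97 (exact p = 0.0286). Over the 7 exact tests of ratios and of the zein share given here, not counting the alternatives without pdi2, the Benjamini-Hochberg adjusted p is 0.0286 for each. As each of the 7 sits at the smallest p possible, the adjustment could give no other value and adds no support. Several of these measures share a numerator or denominator. The ratio of pdi2 to the other isomerases was also chosen after its values were seen.

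The makeup of the isomerase transcripts also differed. pdi2 made up 22.6% ± 6.41 of the summed TPM of the 3 isomerases in the libraries labelled ded1-ref and 52.6% ± 1.40 in normal libraries (SD, n = 4 each). PDIL5-1 made up 51.9% ± 13.9 and 33.0% ± 0.872, and PDIL1-1 25.5% ± 8.39 and 14.5% ± 1.18 (ded1-ref, then normal). The ratio of pdi2 to the other 2 isomerases was 0.320, 0.404, 0.158 and 0.314 in ded1-ref replicates 1 to 4, against 1.07, 1.05, 1.16 and 1.17 in normal replicates. The log2 difference was -1.97 (exact two-sided permutation p = 0.0286). As this ratio was chosen after its values were seen, its p gives no support and the ratio is a description.

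The storage protein load was taken as the summed TPM of the 26 zein genes matched by name, 21 alpha and 5 gamma, beta and delta. Zein transcripts took 40.8%, 38.1%, 43.1% and 38.5% of TPM in ded1-ref replicates 1 to 4, against 32.2%, 29.5%, 30.1% and 30.3% in normal replicates (exact two-sided permutation p = 0.0286). This load is partial: 12 further gene models, which the files name by sequenced clones and the name table does not hold, took 30.3% ± 1.28 of TPM in the libraries labelled ded1-ref and 22.7% ± 1.52 in normal libraries (SD, n = 4 each). Ratios with these models counted in are given as an alternative.

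Set against zein transcripts, BiP transcripts were fewer in the libraries labelled ded1-ref. For each 1000 zein TPM there were 1.74, 2.30, 1.44 and 1.22 BiP TPM in ded1-ref replicates 1 to 4, against 2.75, 3.22, 2.56 and 2.67 in normal replicates. The groups did not overlap, and the ratio was lower in 4 of 4 pairs. A lower ratio to zein was not particular to BiP. The median change of all tested genes was -0.68 in TPM, against -0.39 for bip1 and -0.40 for bip2. Counted from the lowest TPM change, bip1 and bip2 were numbers 10279 and 10151 of 13671, so most tested genes changed further downward. How many genes were lower against zein without overlap was not computed. The log2 difference was -0.78, a fold of 0.583 (exact two-sided permutation p = 0.0286), and -0.79 with the clone-named models counted in. Against alpha zein alone the ratio averaged 1.86 ± 0.526 BiP TPM per 1000 in the libraries labelled ded1-ref and 3.52 ± 0.443 in normal libraries (SD, n = 4 each; log2 difference -0.95, exact p = 0.0286).

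The 3 isomerases were lower still against zein. Counted from the lowest TPM change, pdi2, PDIL5-1 and PDIL1-1 were numbers 64, 1155 and 2469 of 13671 tested genes. Their sum was 0.0287, 0.0303, 0.0285 and 0.0363 TPM per 1000 zein TPM in ded1-ref replicates 1 to 4, against 0.162, 0.180, 0.177 and 0.157 in normal replicates (log2 difference -2.45, exact two-sided permutation p = 0.0286). Without pdi2 the log2 difference was -1.75 (exact p = 0.0286). The gamma, beta and delta zein transcripts took a smaller share of TPM in the libraries labelled ded1-ref, 4.11% ± 0.597, than in normal libraries, 6.15% ± 0.940 (SD, n = 4 each). Against these alone the isomerase sum was 0.285, 0.292, 0.251 and 0.403 TPM per 1000 in ded1-ref replicates 1 to 4, against 0.948, 0.787, 0.746 and 0.914 in normal replicates. The log2 difference was -1.48 and, without pdi2, -0.78 (exact p = 0.0286 for both).

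**Figure D2:**
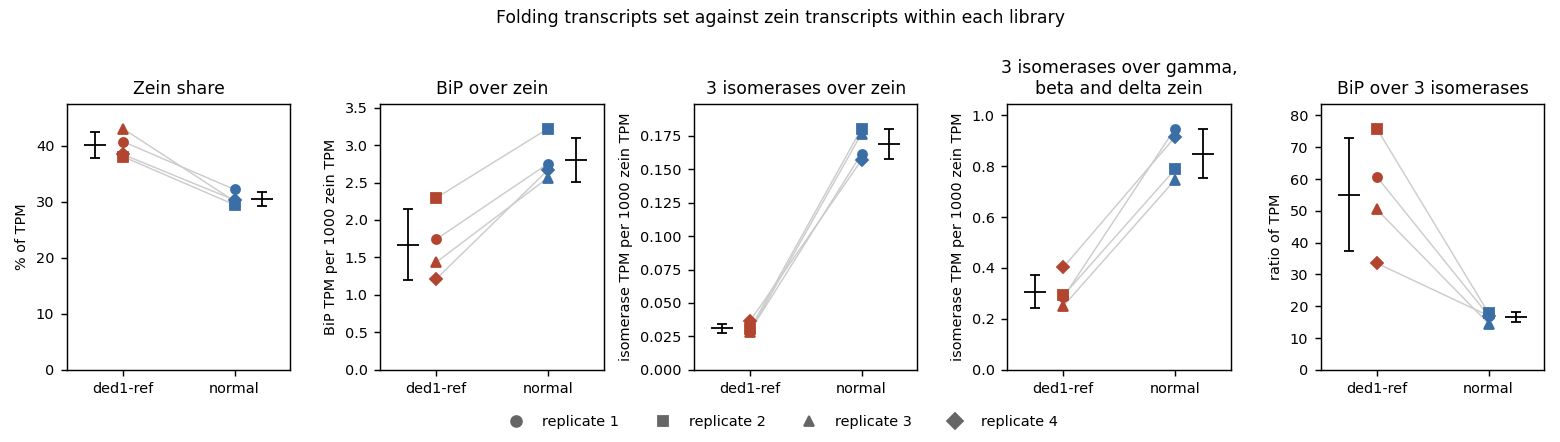
Zein share of TPM, BiP and isomerase TPM per 1000 zein TPM, isomerase TPM per 1000 gamma, beta and delta zein TPM, and BiP over isomerase TPM in each library; marker shapes give the replicate, grey lines join pairs, and black bars are the mean ± SD over 4 libraries. In each panel the 4 libraries labelled ded1-ref lie apart from the 4 normal libraries: the zein share and BiP over isomerases are higher, and the other 3 ratios lower.

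Other ER genes were taken from a list by name: further disulfide isomerases, the lectin chaperones calnexin (CNX) and calreticulin (CRT), the derlins of ER protein disposal, dad1 of the enzyme that attaches sugar chains, SRP9 of the signal recognition particle, and bZIP17, known in Arabidopsis as a membrane-bound factor of ER stress. Of 19 list genes beside the 5, 14 were tested. On the TPM scale 11 were lower and 0 higher, beside 69.8% and 3.53% of all tested genes. On scaled TPM 2 were lower and 3 higher, beside 10.6% and 12.3%. By both tests 2 fell and 0 rose, beside 10.6% and 3.53%. The median log2 change of the 14 was -0.67 on the TPM scale, beside -0.68 for all tested genes, and 0.04 on scaled TPM, beside -0.0031 for all. The genes that fell were GRMZM2G443655 and bZIP17.

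bZIP17 (GRMZM2G103647) fell to 1.61 ± 0.726 TPM in the libraries labelled ded1-ref, against 5.90 ± 0.950 TPM in normal libraries (SD, n = 4 each). The log2 changes were -1.44 ± 0.25 (SE) in TPM and -0.85 ± 0.22 on scaled TPM (limma adjusted p = 3.4e-04 and 0.0244). The scaled call was lost without replicate 3 (-0.59, limma adjusted p = 0.0820) and without replicate 4 (limma adjusted p = 0.0506), and with no filter on low values (limma adjusted p = 0.0811). For rows T02 and T03 of bZIP17, the authors' deposited table has log2 folds of -1.26 and -0.43, with adjusted p-values of 0.0155 and 0.568.

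Calreticulin (GRMZM2G358059), which holds newly glycosylated proteins in the ER for folding, had 214, 256, 205 and 211 TPM in ded1-ref replicates 1 to 4, against 172, 188, 189 and 183 TPM in normal replicates. The groups did not overlap, as for 2.14% of all tested genes that were higher in TPM. The TPM gave a log2 change of 0.27 ± 0.12 (SE), which did not pass (limma adjusted p = 0.0625), and 1.11 ± 0.13 on scaled TPM (limma adjusted p = 3.5e-04). Set against the BiP sum it stood at 0.344 ± 0.0733 in the libraries labelled ded1-ref and 0.216 ± 0.0241 in normal libraries (SD, n = 4 each), the higher value in 4 of 4 pairs. For calreticulin, the authors' deposited table has a log2 fold of 1.11 with an adjusted p of 5.7e-13. Calnexin (GRMZM2G022180) stood at 15.6 ± 7.51 and 21.8 ± 3.12 TPM (SD, n = 4 each; ded1-ref, then normal) and passed neither test.

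Among the other disulfide isomerases, PDIL2-3 (GRMZM2G389173), whose rice counterpart is known to act at the protein bodies that hold prolamin, stood at 135 ± 22.2 TPM in the libraries labelled ded1-ref and 170.4 ± 27.7 TPM in normal libraries (SD, n = 4 each). It passed both tests in opposite directions, at log2 changes of -0.34 on the TPM scale and 0.50 on scaled TPM (limma adjusted p = 0.0255 and 0.0348), and so has no direction here. DER2.1 (GRMZM2G082976), at 55.0 ± 7.11 TPM in the libraries labelled ded1-ref and 72.0 ± 6.67 TPM in normal libraries, likewise passed at -0.39 and 0.44 (limma adjusted p = 0.0256 and 0.0457). Without the replicate block both scaled calls were lost (limma adjusted p = 0.0569 for PDIL2-3 and 0.0549 for DER2.1), as was the TPM call of PDIL2-3 (0.0905). With no filter on low values both scaled calls were lost as well (limma adjusted p = 0.0788 and 0.0853), and DER2.1 also missed the threshold with upper quartile factors (0.0696). As TPM without the zein genes matched by name, the changes were -0.13 and -0.18 and did not pass (limma adjusted p = 0.359 and 0.260). The scaled call of PDIL2-3 was lost without replicate 1, 3 or 4 and that of DER2.1 without replicate 1, 2 or 3, and the TPM calls without replicate 1 or 2 for PDIL2-3 and without replicate 1, 3 or 4 for DER2.1. Over the pairs left out in turn, the scaled changes ran from 0.37 to 0.59 for PDIL2-3 and from 0.36 to 0.56 for DER2.1. PDIL1-3 (GRMZM2G134889) stood at 45.8 ± 9.93 TPM in the libraries labelled ded1-ref and 61.8 ± 2.42 TPM in normal libraries, with a scaled log2 change of 0.38 that did not pass (limma adjusted p = 0.0854). PDIL5-2 and PDIL5-3 (GRMZM2G007385) had scaled log2 changes of -0.33 and -0.05, which did not pass (limma adjusted p = 0.126 and 0.873). The derlins DER1.2 (GRMZM2G143817) and DER2.2 (GRMZM2G112609) were lower in 4 of 4 pairs on both scales. They passed in TPM at -1.11 and -0.99 (limma adjusted p = 2.8e-04 and 9.2e-05). On scaled TPM their changes of -0.36 and -0.15 did not pass (limma adjusted p = 0.102 and 0.409). DER1.1 (GRMZM2G117388) passed neither test. dad1 (GRMZM5G847530), one of the more abundant genes of the list, stood at 188 ± 49.8 TPM in the libraries labelled ded1-ref and 393 ± 33.1 TPM in normal libraries, with a scaled log2 change of -0.25 that did not pass (limma adjusted p = 0.367).

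**Figure D3:**
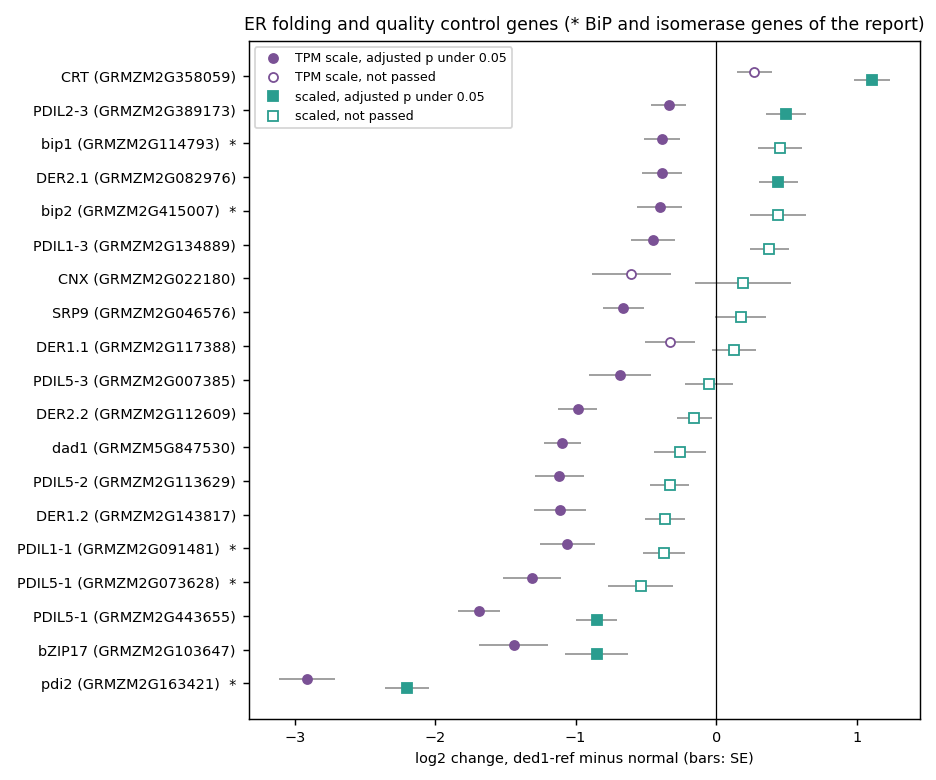
Log2 change (ded1-ref minus normal, bars SE) of the 19 tested ER genes on the TPM scale (circles) and on scaled TPM (squares), ordered by the scaled change; filled markers passed at an adjusted p of 0.05, and asterisks mark the 5 genes described first. pdi2 lies lowest at -2.91 and -2.20, the BiP genes stand on opposite sides of 0 on the 2 scales, and calreticulin is highest at 0.27 and 1.11.

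Over the 8 libraries the log2 scaled levels of bip1 and bip2 had a Pearson correlation of 0.94, and those of PDIL1-1 and pdi2 of 0.86. PDIL5-1 was less like either, at 0.32 with PDIL1-1 and 0.53 with pdi2, and bip1 and pdi2 stood at -0.74. These values are descriptions over 8 libraries in 2 groups and follow the group difference in part. Among 1212 tested genes with an informative name, the profiles most like the mean of the BiP genes were those of ESMT1 (GRMZM2G122810, r = 0.97), BZO2H2 (GRMZM2G098904, 0.94), IBP1 (GRMZM2G063151, 0.93), fcr2 (GRMZM2G157263, 0.92) and phb1 (GRMZM2G134955, 0.92). Those most like the mean of the 3 isomerases were aldolase2 (GRMZM2G066024, r = 0.99), ald1 (GRMZM2G057823, 0.98), the tubulin genes tua5 (GRMZM2G099167, 0.98) and TUBB2 (GRMZM2G334899, 0.98), and PP2C24 (GRMZM2G044382, 0.98).

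Markers of starchy endosperm were high in all libraries, with a summed level over o2, PBF, ae1 and bt1 of 1702 to 2090 TPM in the libraries labelled ded1-ref and 3034 to 3840 TPM in normal libraries. Most of this sum was the ae1 model GRMZM2G032628, at 1376 to 1656 and 2314 to 3003 TPM (ded1-ref, then normal). Zein genes, also starchy endosperm markers, are not in this sum and went the other way. They took 40.1% ± 2.32 of TPM in the libraries labelled ded1-ref and 30.5% ± 1.18 in normal libraries (SD, n = 4 each). The 6 basal transfer layer markers summed to 150.4 to 292 TPM and 489 to 1220.3 TPM, the 9 embryo markers to 242 to 459 and 296 to 527 TPM, and the 4 aleurone markers to 11.2 to 35.1 and 14.9 to 19.7 TPM (ded1-ref, then normal). On scaled TPM the starchy endosperm sums overlapped, at 2143 to 3480.0 and 2457 to 2886, and so did the basal transfer layer sums, at 176 to 486 and 367 to 900.1. On that scale the aleurone sum was 18.6 to 51.5 and 11.1 to 14.5, and the embryo sum 404 to 674 and 223 to 389. Both sums were higher without overlap in the libraries labelled ded1-ref, as were 12% of single tested genes. The embryo markers wus1 and wox5B were listed at 0 in all 8 libraries, and KN-1 and glb2 did not exceed 0.0412 TPM. The aleurone markers did not move together. In TPM a2 (1.73 to 15.6 against 0 to 0.186) and bronze-2 (1.28 to 3.41 against 0 to 0.393) were higher in the libraries labelled ded1-ref. The marker c1 overlapped, and dek1 was lower (3.70 to 11.4 against 12.1 to 14.4). Most of the embryo sum was ole1, which overlapped at 224 to 414 and 275 to 499 TPM (ded1-ref, then normal). The single maternal marker, m6, had 0.354 to 1.30 and 0.432 to 3.87 TPM. The part of these differences in the changes of BiP and the isomerases was not tested, and in bulk tissue fewer cells of a type and less RNA per cell cannot be told apart.

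**Figure D4:**
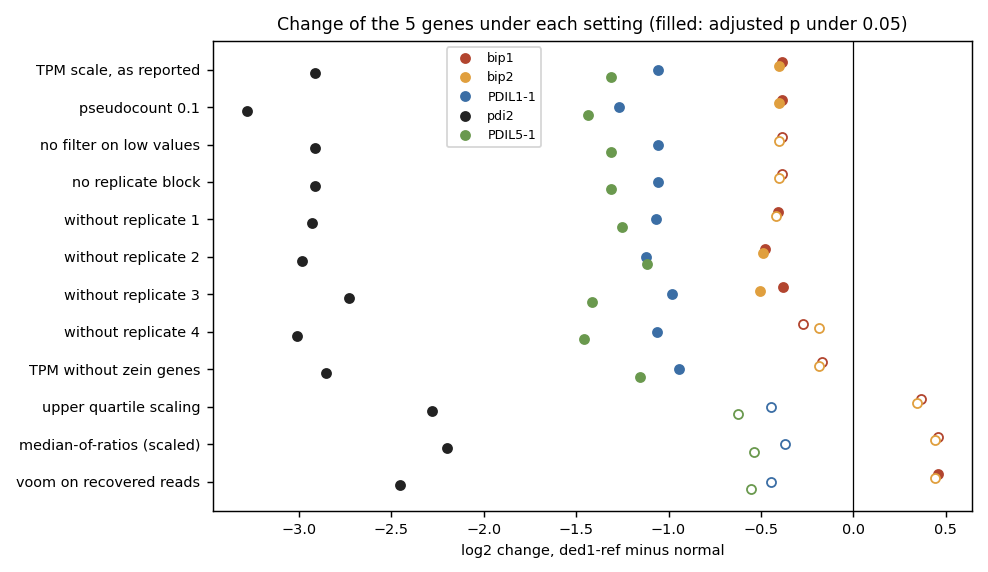
Log2 change (ded1-ref minus normal) of the 5 genes on the TPM scale and under each alternative setting; filled markers passed at an adjusted p of 0.05. pdi2 stays between -3.28 and -2.20 and passes in each setting shown, whereas the BiP genes lie below 0 with TPM and above 0 with upper quartile, median-of-ratios and voom scaling. TPM without zein genes leaves out those matched by name and keeps the clone-named models.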

How the data were processed

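The submitters' processing notes name cutadapt 1.1, GSNAP and Trimmomatic 0.22, without their order. Counter and genome build: not given in the sources used here. Per the labels, libraries do not mark strand, so overlapping genes on opposite strands cannot be told apart. The authors deposited TPM for 63293 transcript rows. Per the file headers the authors' table gives a mean normalized signal, a log2 fold and its log2 standard error, a score whose sign is opposite to the fold, and p-values with adjusted p-values; the fold column, unit named other, holds no fold in 24566 rows.

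Rows were summed to genes, and those reaching 1 TPM in 4 or more libraries were tested by limma 3.58.1 (R 4.3.3) on log2(TPM + 1), with the replicate number as a block, since the design pairs sibling pools. Deviations from the group means correlated at 0.115, 0.333, 0.309 and 0.149 within the 4 pairs. The size of a pool is not given in the labels, and p-values measure the spread between these pools. Reads were recovered from the TPM and the authors' mean signal, and 100% of 236228 values above 0 came out whole within 0.05 reads. Scripts ran in Python 3.11.15 and were tested on simulated data.

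A planned rule on descriptions in the name table could not be used, as it has none. The genes named are the 5 members, ER list genes past both tests in 1 direction (up to 10 in each by scaled change) and the 3 most abundant ER list genes, and the 5 genes most like each profile. Calnexin, PDIL1-3, PDIL2-3, PDIL5-2, PDIL5-3 and the derlins were named after their values were seen. Of the 39423 genes, 18771 matched the name table (Zm-B73-REFERENCE-NAM-5.0, used for names alone), so lists rest on symbols. The members and lists were chosen with earlier results of these data known. Alternatives were other scalings, TPM without zein genes, pseudocount 0.1, no filter, no block, limma-voom on recovered reads, each pair left out, and, chosen after seeing the data, the clone-named models, sums without pdi2 and the same alternatives on scaled TPM.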

Additional observations from a re-analysis of the deposited data

Results flagged for a closer look

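A sample stood apart from the other 3 of its group in 2 of 54 groups of 4 examined, where chance flags about 5% of groups. PDIL5-1 (GRMZM2G073628) had 15.2 TPM in normal replicate 4, below 17.4 to 17.8 TPM in the other normal libraries. The ratio of BiP to alpha zein was 4.18 BiP TPM per 1000 alpha zein TPM in normal replicate 2, above 3.22 to 3.36 in the other normal libraries.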

How the results depend on the processing

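pdi2 kept its direction and passed on both scales under each alternative run. The BiP genes did not: bip1 and bip2 changed by 0.46 and 0.44 on scaled TPM, 0.36 and 0.35 with upper quartile factors, and 0.46 and 0.44 in limma-voom on recovered reads, settings that also move the median of all genes (-0.0031 on scaled TPM, -0.68 in TPM). As TPM without zein genes they changed by -0.17 and -0.19 and did not pass (limma adjusted p = 0.257 and 0.335). That setting removed only the 26 zein genes matched by name. The clone-named models stayed in the total, and the median of all genes was still -0.54, so it does not settle the sign of BiP. At the TPM changes of -0.39 and -0.40 the BiP genes also missed the threshold with no filter on low values (limma adjusted p = 0.0556 and 0.116) and without the replicate block (0.0598 and 0.105). PDIL1-1 and PDIL5-1 kept their sign but missed it on scaled TPM (-0.37 and -0.54), with upper quartile factors (-0.45 and -0.62; limma adjusted p = 0.0681 and 0.0663) and in limma-voom (-0.45 and -0.55). The block changed no other call of the 5 genes.

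With each pair left out in turn, the TPM change ran from -0.48 to -0.27 for bip1, -0.51 to -0.19 for bip2, -1.12 to -0.98 for PDIL1-1, -3.01 to -2.73 for pdi2 and -1.46 to -1.11 for PDIL5-1, and the scaled change of bip2 from 0.23 to 0.68. Log2 differences then ran from -0.88 to -0.66 for BiP over zein, -1.03 to -0.84 for BiP over alpha zein, -2.57 to -2.39 for isomerases over zein, -1.58 to -1.40 for isomerases over gamma, beta and delta zein, 1.54 to 1.91 for BiP over isomerases and -2.17 to -1.67 for pdi2 over the other isomerases, and the zein share differed by 8.45 to 10.1 percentage points; 3 against 3 libraries cannot go below an exact p of 0.1. With the pair as a block, the exact sign-flip test of 4 pairs cannot pass 0.05, and each of these measures reached the smallest p it allows, at differences of -0.78, -0.95, -2.45, -1.48, 1.67, -1.97 and 9.58 percentage points. Summed as recovered reads, each kept its direction and exact p.

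Over all genes 482 were higher and 9539 lower in TPM, 1687 and 1444 on scaled TPM, 1405 and 1846 with upper quartile factors, 618 and 7359 without zein genes and 1829 and 1417 in limma-voom. Of the 19 tested ER genes 0 were higher and 16 lower in TPM, 3 and 3 on scaled TPM, 2 and 3 with upper quartile factors, 1 and 10 without zein genes, and 4 and 3 in limma-voom. PDIL1-1 and PDIL5-1 rest on few reads, which limits their precision.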
